A study of Homo sapiens with 24 samples.

Results

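ATF4, ATF3, ATF5, DDIT3, TRIB3, CHAC1, ASNS, SESN2 and SLC7A11 are human genes of the transcriptional program that follows amino acid shortage and other stresses. They were taken by symbol, through their Ensembl gene identifiers, from a table of counts per gene, and make up 9 of its 60668 rows. All 9 passed the filter on low counts and were tested among 22158 genes. The libraries came from MCF-10A, an immortalised, non-tumorigenic human mammary epithelial line of basal character, and from MCF-10A MYC-ER, the same line carrying the MYC transcription factor fused to a part of the oestrogen receptor that binds 4-hydroxytamoxifen (4-OHT). The 2 lines are written here as parental and MYC-ER. Both were grown as 3D cultures on growth-factor-reduced Matrigel, with 10000 cells seeded per well and the medium replaced at 72 h. Each line was given 1 µM 4-OHT for 0, 8, 24 or 48 h, with treatment from day 3 and collection of every sample on day 5, and each of the 8 groups has 3 replicates. The 0 h groups therefore had no 4-OHT and the same culture age as the treated groups. The labels do not say whether the fused MYC is human or mouse, what drives it, whether the MYC-ER line is 1 clone, or whether replicates were separate cultures, so the p-values measure only the spread between these libraries.

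ATF4 is a basic leucine zipper (bZIP) transcription factor at the centre of the integrated stress response. Stress kinases, among them GCN2, which senses uncharged tRNA, and PERK, which senses misfolded protein in the endoplasmic reticulum, phosphorylate the initiation factor eIF2; general translation then falls while ATF4 mRNA, through its upstream open reading frames, is translated more. For that reason the ATF4 mRNA level is no measure of ATF4 protein. ATF4 dimers bind C/EBP-ATF response elements of targets that make and import amino acids, charge tRNA and, with prolonged stress, limit growth or promote cell death. MYC raises the demand for amino acids and protein synthesis in many cell types, and 4-OHT releases the fused MYC in the MYC-ER line only.

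Library totals ran from 136860029 to 182438505 counts, a 1.33-fold range, and levels are given as CPM, the count scaled to a common, TMM-adjusted library size. A count of 0 in the smallest library allows up to 0.0219 CPM on its unscaled total (3 counts; counting error only, since PCR copies were not marked). Mitochondrial transcripts took 9.24% to 9.71% of the counts in the 3 MYC-ER 0 h libraries and 3.86% in parental 0 h replicate 1. In the other libraries the share was 5.51% to 7.78%. The 3 parental 0 h libraries also differed most among themselves, with a chi-square per degree of freedom of 158.8 to 260.5 between pairs, against 8.445 to 63.34 in the other groups; the parental changes, the line differences at 0 h and every interaction rest on them. All 8 basal mammary markers (KRT5, KRT14, KRT17, TP63, ITGA6, ITGB4, CDH3 and EGFR) were present. Their summed level was 11510 to 18050 CPM in MYC-ER and 20190 to 30810 CPM in parental libraries, without overlap. The 5 general epithelial markers (CDH1, EPCAM, KRT8, KRT18 and KRT19) summed to 348.8 to 368.4 CPM at MYC-ER 0 h and 808.2 to 862.4 at MYC-ER 8 h. In the other groups they summed to 421.6 to 668 CPM. The 5 fibroblast markers summed to 369.5 to 376.8 CPM at MYC-ER 0 h and to 77.31 to 132.8 CPM in the other groups, through COL1A1 and DCN; COL1A2 and PDGFRA had 0 counts at MYC-ER 0 h. Of the leukocyte markers 2 of 4, of the endothelial markers 1 of 3 and of the luminal markers 1 of 4 had 0 counts in every library. The lists still summed to 2.87 to 9.03 CPM for leukocytes, 0.058 to 2.32 for endothelial cells and 11.2 to 20.2 for luminal cells. The part of these differences in the results that rest on the MYC-ER 0 h libraries was not tested. In bulk RNA, fewer cells of a type and less RNA per cell cannot be told apart.

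The sequences shown are those that hold a binding motif in the 250 bases before an annotated start of a member, since ATF4 and MYC bind short DNA motifs near their targets. RefSeq promoter entries (GRCh38.p14) matched 8 of the 9 genes, in 16 windows. The C/EBP-ATF response element was searched as TGATGNAA or its reverse complement TTNCATCA, and the E-box bound by MYC as CACGTG, which reads the same on both strands. The response element was found for ATF3, CHAC1 and ASNS, and the E-box for ATF4. Of all 35116 promoter windows of this length, 3.14% held the first motif and 6.34% the second. These shares are per window, not per gene, and cannot be set directly against the number of genes with a match. For ATF3 and ASNS a further window held no match. The ATF4 E-box is the same site in overlapping windows, 82 and 85 bases before their starts. Each sequence runs 5′ to 3′ on the strand of its gene, with the match in capitals.
ATF3, chr1:212565205-212565234, plus strand, 191 bases before the start: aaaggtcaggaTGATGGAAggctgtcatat
ASNS, chr7:97872458-97872487, minus strand, 68 bases before the start: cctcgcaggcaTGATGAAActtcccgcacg
CHAC1, chr15:40953251-40953280, plus strand, 209 bases before the start, motif reversed: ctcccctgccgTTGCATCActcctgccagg
ATF4, chr22:39520465-39520494, plus strand, 82 bases before the start: ggaggagacggtCACGTGgtcgcggcggaa
The ASNS, CHAC1 and ATF4 stretches also lie within annotated exons of these genes, while the ATF3 stretch lies in no exon of ATF3. The 177 bases of the ATF3 window that lie before any annotated exon of the gene, chr1:212565157-212565333, give the wider context of that element.
ATF3, 177 bases: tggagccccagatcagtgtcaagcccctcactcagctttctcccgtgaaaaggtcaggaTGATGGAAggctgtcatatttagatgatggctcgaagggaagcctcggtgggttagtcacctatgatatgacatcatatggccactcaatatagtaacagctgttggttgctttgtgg
A match describes these letters only and is not evidence of binding.

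Per length of transcript the 9 genes spanned a wide range. At MYC-ER 0 h the level was 207.6 CPM per kilobase of merged exon for ATF4, 20.2 for ATF5, 12.8 for SESN2 and 11.6 for DDIT3. On the same scale ASNS stood at 2.41, TRIB3 at 2.38, ATF3 at 1.68, SLC7A11 at 0.672 and CHAC1 at 0.139. Across the 8 groups the mean CPM of a gene varied most for TRIB3, 15.2-fold between the highest and the lowest group, followed by ATF3 (9.02-fold), SLC7A11 (7.89-fold), DDIT3 (4.15-fold), CHAC1 (3.69-fold) and ASNS (2.72-fold). ATF5 varied 1.90-fold, ATF4 1.75-fold and SESN2 1.54-fold.

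**Figure D1:**
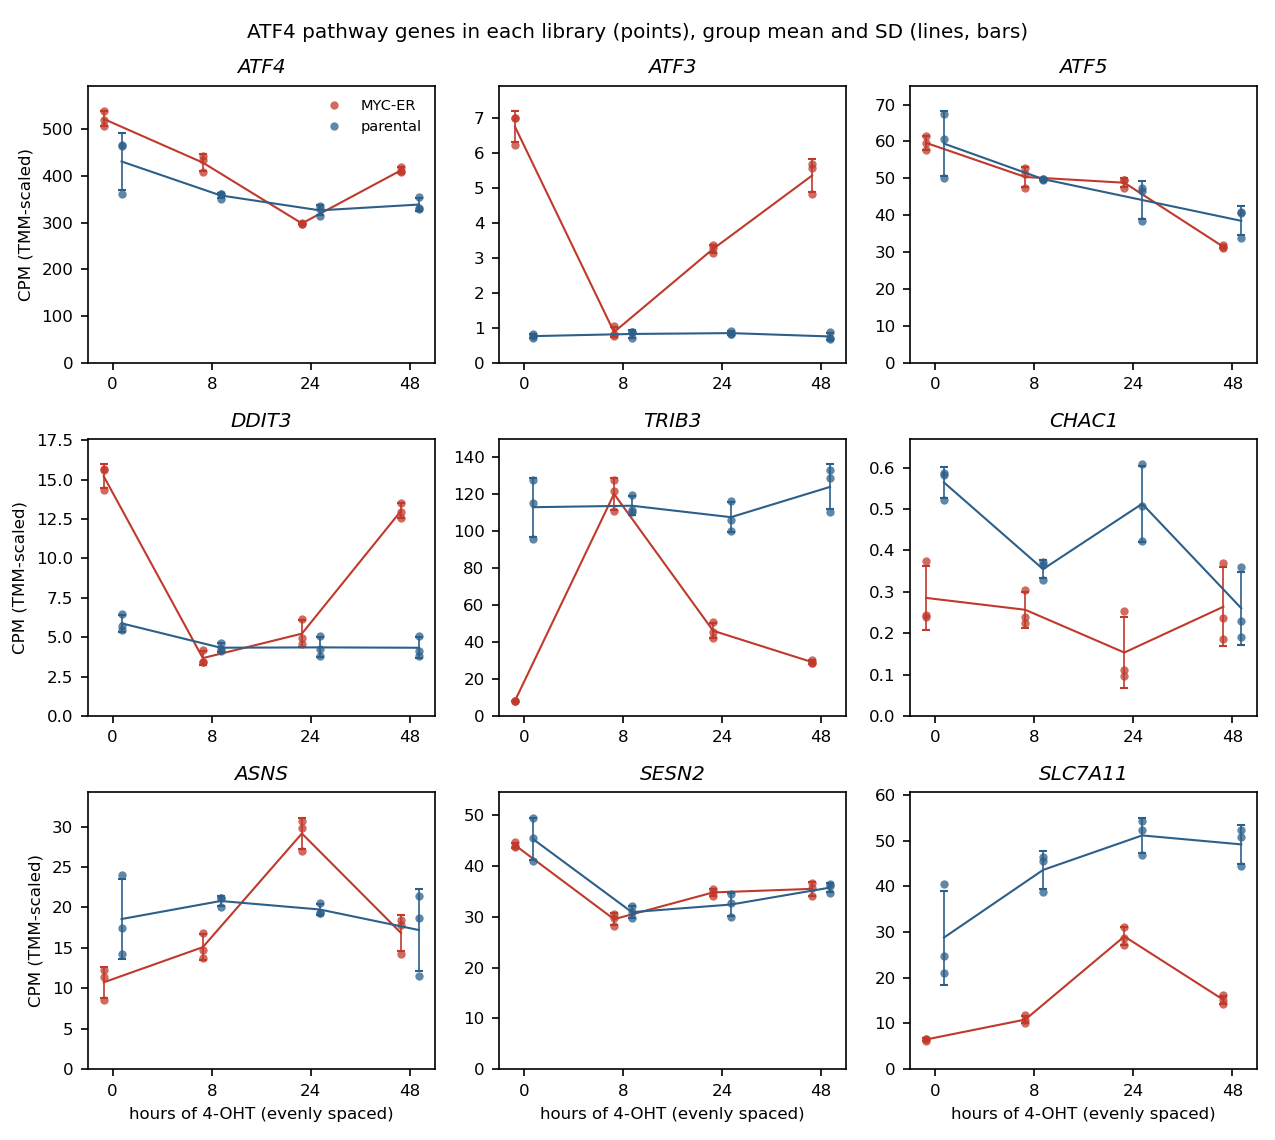
Level of each of the 9 genes in CPM (y axis, linear, from 0, own scale per gene) against hours of 4-OHT (x axis, evenly spaced), with 1 point per library, red for MYC-ER and blue for parental, and bars for the mean ± SD of 3 libraries. ATF3 and DDIT3 are high in MYC-ER at 0 h and 48 h and low at 8 h, whereas TRIB3 is low in MYC-ER at 0 h and at parental levels at 8 h.

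ATF4 itself (ENSG00000128272.14, GRCh38 chr22:39519695-39522685, plus strand) was the most abundant of the genes and changed little in fold. In MYC-ER it stood at 506, 521 and 539 CPM at 0 h, at 434, 408 and 443 at 8 h, at 300, 298 and 297 at 24 h, and at 419, 409 and 407 at 48 h. Parental libraries held 467, 361 and 464 CPM at 0 h, 351, 361 and 362 at 8 h, 314, 335 and 329 at 24 h, and 329, 332 and 354 at 48 h. The untreated MYC-ER libraries were above all others, the 24 h MYC-ER libraries below all others, and parental 0 h replicate 2 stood apart from its 2 fellows. In MYC-ER, ATF4 mRNA fell at 8 h (log2 change -0.29, SE 0.0682, adjusted p = 8.97e-04), further at 24 h (-0.81, SE 0.0686, adjusted p = 9.40e-10, 1.75-fold lower), and lay above the 24 h level again at 48 h (48 h against 24 h 0.47, adjusted p = 5.11e-06). The 48 h level was still below 0 h, at -0.34 (adjusted p = 2.98e-04).

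ATF3 (ENSG00000162772.17, chr1:212565334-212620777, plus strand) is a bZIP repressor induced in stress. A match to the response element lies before 1 annotated start, and the window before another, chr1:212614768-212615017, held none. Which start these cells use was not tested. ATF3 stood at 6.25, 7.03 and 7.02 CPM in untreated MYC-ER libraries, and at 1.05, 0.759 and 0.821 after 8 h of 4-OHT. The level was then 3.28, 3.36 and 3.15 CPM at 24 h and 4.84, 5.69 and 5.57 at 48 h. The 12 parental libraries lay between 0.678 and 0.917 CPM at every time. Only at 8 h did the MYC-ER libraries overlap the parental range, and no pair of MYC-ER times overlapped. ATF3 fell at 8 h by 2.95 on the log2 scale (SE 0.138, adjusted p = 2.81e-14, 7.72-fold lower) and rose from 8 h to 24 h by 1.90 (adjusted p = 6.91e-11) and from 24 h to 48 h by 0.72 (adjusted p = 5.14e-05). Against 0 h ATF3 had a log2 change of -1.05 after 24 h (adjusted p = 2.39e-07) and of -0.33 after 48 h (adjusted p = 0.0353). The 48 h call was lost under 8 of 34 alternatives: with library size alone as scaling (-0.17, adjusted p = 0.306), with upper quartile scaling, no filter or the GC trend removed (adjusted p from 0.0537 to 0.0687), without MYC-ER 0 h replicate 2 or 3 (adjusted p = 0.102 and 0.0998) and without MYC-ER 48 h replicate 1 or 3 (adjusted p = 0.154 and 0.0558).

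DDIT3 (ENSG00000175197.12, chr12:57516588-57521737, minus strand) encodes CHOP, the factor that links prolonged stress to cell death. Its MYC-ER levels were 14.3, 15.6 and 15.7 CPM at 0 h, 3.44, 3.41 and 4.16 at 8 h, 4.53, 4.98 and 6.16 at 24 h, and 13.5, 12.9 and 12.6 at 48 h. Parental libraries held 5.68, 5.49 and 6.47 CPM at 0 h and between 3.79 and 5.07 at the later times. The MYC-ER 0 h and 48 h libraries were thus above every other library, and the 8 h libraries had the lowest mean but overlapped the parental range. DDIT3 fell at 8 h by 2.05 on the log2 scale (SE 0.13, adjusted p = 4.96e-12, 4.14-fold lower), was still lower at 24 h (-1.54, adjusted p = 5.44e-10), and rose from 24 h to 48 h by 1.32 (adjusted p = 1.03e-08). At 48 h its difference from 0 h was -0.23 (95% interval -0.49 to 0.04, adjusted p = 0.151), although the replicates of the 2 times did not overlap and a fit of these 2 groups alone called it lower (-0.22, adjusted p = 0.00729). DDIT3 shares 355 exon bases with the methionyl-tRNA synthetase gene MARS1 on the opposite strand, and whether the counting used strand is not given in the sources used here. MARS1 means in MYC-ER were 72.9, 174, 91.7 and 56.7 CPM at 0, 8, 24 and 48 h, highest where DDIT3 was lowest. DDIT3 also shares 105 exon bases with AC022506.1 on the same strand and 58 with MBD6 on the opposite strand. MBD6 means at these times were 94.6, 58.0, 82.9 and 111 CPM, lowest where DDIT3 was lowest.

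ATF5 (ENSG00000169136.11, chr19:49928702-49933935, plus strand), a bZIP factor also translated through upstream open reading frames, had a lower mean at each later time in both lines. In MYC-ER it stood at 59.7, 57.7 and 61.4 CPM at 0 h, 52.7, 47.3 and 51.1 at 8 h, 49.6, 49.4 and 47.4 at 24 h, and 31.1, 31.2 and 31.8 at 48 h. Parental libraries held 67.5, 50.01 and 60.7 CPM at 0 h, with 49.7 to 49.9 after 8 h, 38.3 to 47.4 after 24 h and 33.9 to 40.9 after 48 h. The 48 h MYC-ER libraries were the lowest of all 24, and at 0 h and 8 h the lines overlapped. In MYC-ER the log2 change was -0.24 at 8 h (adjusted p = 0.0204), -0.29 after 24 h (adjusted p = 0.00769) and -0.92 after 48 h (SE 0.0899, adjusted p = 2.31e-08, 1.90-fold lower). Library size alone as scaling ended the 24 h call (-0.17, adjusted p = 0.0701), and leaving out MYC-ER 8 h replicate 2 the 8 h call (-0.20, adjusted p = 0.0916), as did leaving out MYC-ER 0 h replicate 3 (-0.22, adjusted p = 0.0645). ATF5 shares 626 exon bases with NUP62 on the opposite strand, whose MYC-ER means were 60.4, 83.0, 70.9 and 57.6 CPM in order of time.

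TRIB3 (ENSG00000101255.11, chr20:362835-397559, plus strand) is a pseudokinase, induced by ATF4 and CHOP, that binds AKT and ATF4. It had the largest change of the 9 genes. Untreated MYC-ER libraries held 8.27, 8.20 and 8.01 CPM, and those at 8 h held 122, 111 and 128. The level was 50.7, 45.2 and 42.4 CPM at 24 h and 30.1, 28.5 and 28.6 at 48 h. All 12 parental libraries lay between 96.0 and 133 CPM. The MYC-ER groups did not overlap each other, and only at 8 h did they lie within the parental range. TRIB3 rose 14.7-fold at 8 h (log2 change 3.88, SE 0.102, adjusted p = 2.17e-18), and then fell by 1.38 on the log2 scale from 8 h to 24 h (adjusted p = 2.38e-11) and by 0.66 from 24 h to 48 h (adjusted p = 2.00e-06). At 24 h and 48 h it was still 5.65-fold and 3.57-fold above 0 h (adjusted p = 1.38e-15 and 7.74e-13). TRIB3 thus rose while ATF3 and DDIT3, which share the stress program with it, fell.

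The 2 genes of amino acid supply rose in MYC-ER and were highest at 24 h. ASNS (ENSG00000070669.17, chr7:97852118-97872542, minus strand) encodes asparagine synthetase and SLC7A11 (ENSG00000151012.13, chr4:138164097-138242349, minus strand) the transport subunit of the cystine/glutamate antiporter. ASNS stood at 11.4, 8.57 and 12.2 CPM at 0 h, 14.7, 16.8 and 13.7 at 8 h, 29.8, 26.9 and 30.7 at 24 h, and 17.9, 14.3 and 18.4 at 48 h in MYC-ER. Parental ASNS ran from 11.5 to 24.0 CPM over the 12 libraries with every neighbouring pair of groups overlapping. The MYC-ER 24 h libraries were above all others. ASNS shares 1985 exon bases with AC079781.5 on the same strand, and both ASNS and ATF4 have processed pseudogenes, so their counts are uncertain to the extent that reads were shared. ASNS rose 2.72-fold at 24 h (log2 change 1.44, SE 0.187, adjusted p = 7.01e-07), with smaller rises at 8 h (0.49, adjusted p = 0.0243) and 48 h (0.65, adjusted p = 0.00673). The 8 h call was lost with upper quartile scaling (0.35, adjusted p = 0.103), with library size alone (0.40, adjusted p = 0.0823), without MYC-ER 0 h replicate 2 (0.35, adjusted p = 0.132) and without MYC-ER 8 h replicate 2 (0.40, adjusted p = 0.0949). Removing GC and length trends also ended the 8 h call (0.39, adjusted p = 0.0719). Without MYC-ER 0 h replicate 2 the 48 h call was lost too (0.51, adjusted p = 0.0502).

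SLC7A11 in MYC-ER stood at 6.59, 6.66 and 6.20 CPM at 0 h, 10.01, 11.7 and 10.8 at 8 h, 31.2, 27.2 and 28.7 at 24 h, and 14.3, 15.03 and 16.1 at 48 h. Parental libraries held 24.9, 40.5 and 21.1 CPM at 0 h, with 38.7 to 46.4 after 8 h, 46.8 to 54.3 after 24 h and 44.4 to 52.3 after 48 h. The MYC-ER groups did not overlap each other, and only their 24 h libraries reached the range of the untreated parental ones. SLC7A11 rose 1.67-fold at 8 h (log2 change 0.74, adjusted p = 2.57e-04), 4.48-fold at 24 h (2.16, SE 0.159, adjusted p = 8.32e-11) and 2.34-fold at 48 h (1.23, adjusted p = 1.20e-06). Its antisense partner SLC7A11-AS1 had 0 or 1 counts. SLC3A2, which encodes the other chain of the antiporter, fell in MYC-ER at 8 h (log2 change -0.52, adjusted p = 8.38e-07) and 24 h (-0.26, adjusted p = 0.00277), from a mean of 478 CPM at 0 h to 333 and 400.

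SESN2 (ENSG00000130766.5, chr1:28259527-28282491, plus strand), a leucine sensor that restrains mTORC1 and a target of p53 as well as ATF4, stood at similar levels in both lines. MYC-ER libraries held 43.9, 44.7 and 43.8 CPM at 0 h, 29.8, 28.3 and 30.6 at 8 h, 34.2, 35.5 and 34.8 at 24 h, and 36.8, 35.7 and 34.2 at 48 h. Parental libraries held 49.5, 41.1 and 45.6 CPM at 0 h, with 29.8 to 32.1 after 8 h, 30.01 to 34.6 after 24 h and 34.8 to 36.5 after 48 h. The untreated libraries of both lines were above all treated ones. SESN2 fell in MYC-ER at 8 h by 0.58 on the log2 scale (SE 0.0597, adjusted p = 1.73e-08, 1.49-fold lower), and was lower than at 0 h after 24 h (-0.34, adjusted p = 3.32e-05) and 48 h (-0.31, adjusted p = 1.73e-04).

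CHAC1 (ENSG00000128965.13, chr15:40952962-40956519, plus strand) encodes an enzyme that degrades glutathione and is a widely used reporter of ATF4 and CHOP activity. It was the least abundant member, with 15 to 103 counts per library. MYC-ER libraries held 0.244, 0.238 and 0.374 CPM at 0 h, 0.224, 0.305 and 0.240 at 8 h, 0.111, 0.253 and 0.0961 at 24 h, and 0.369, 0.238 and 0.185 at 48 h. Parental libraries ran from 0.522 to 0.588 CPM at 0 h, from 0.329 to 0.371 after 8 h, from 0.424 to 0.608 after 24 h and from 0.191 to 0.360 after 48 h. All MYC-ER groups overlapped each other. The change at 8 h was -0.15 (SE 0.328, adjusted p = 0.696). The call at 24 h (log2 change -0.90, SE 0.336, adjusted p = 0.0253) was lost under 6 of 34 alternatives, among them leaving out MYC-ER 0 h replicate 3 (-0.65, adjusted p = 0.135), MYC-ER 24 h replicate 1 (-0.70, adjusted p = 0.115) or MYC-ER 24 h replicate 3 (-0.65, adjusted p = 0.129), and the change was -1.45 without MYC-ER 24 h replicate 2.

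Counted together, 3 of the 9 genes rose in MYC-ER at 8 h (TRIB3, SLC7A11 and ASNS), where 32.2% of all genes tested rose, and 5 fell (ATF3, DDIT3, SESN2, ATF4 and ATF5), where 35.4% fell. At 24 h the same 3 rose and the other 6 fell, beside 30.4% and 31.2% of all genes. At 48 h the same 3 rose and 4 fell (ATF5, ATF4, ATF3 and SESN2), beside 23.4% and 20.7%. The median log2 change of the 9 was -0.24, -0.34 and -0.23 at 8, 24 and 48 h, beside -0.10, -0.02 and 0.03 over all genes. With most genes called at 8 h and 24 h, the number of members called is no result about them; the level and direction of each gene are what is described here. From 8 h to 24 h, 5 rose (ATF3, SLC7A11, ASNS, DDIT3 and SESN2) and 2 fell (TRIB3 and ATF4), beside 28.4% and 27.1% of all genes. From 24 h to 48 h, 3 rose (DDIT3, ATF3 and ATF4) and 4 fell (SLC7A11, ASNS, TRIB3 and ATF5), beside 28.2% and 25.5%. These comparisons share libraries and are not independent of each other.

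**Figure D2:**
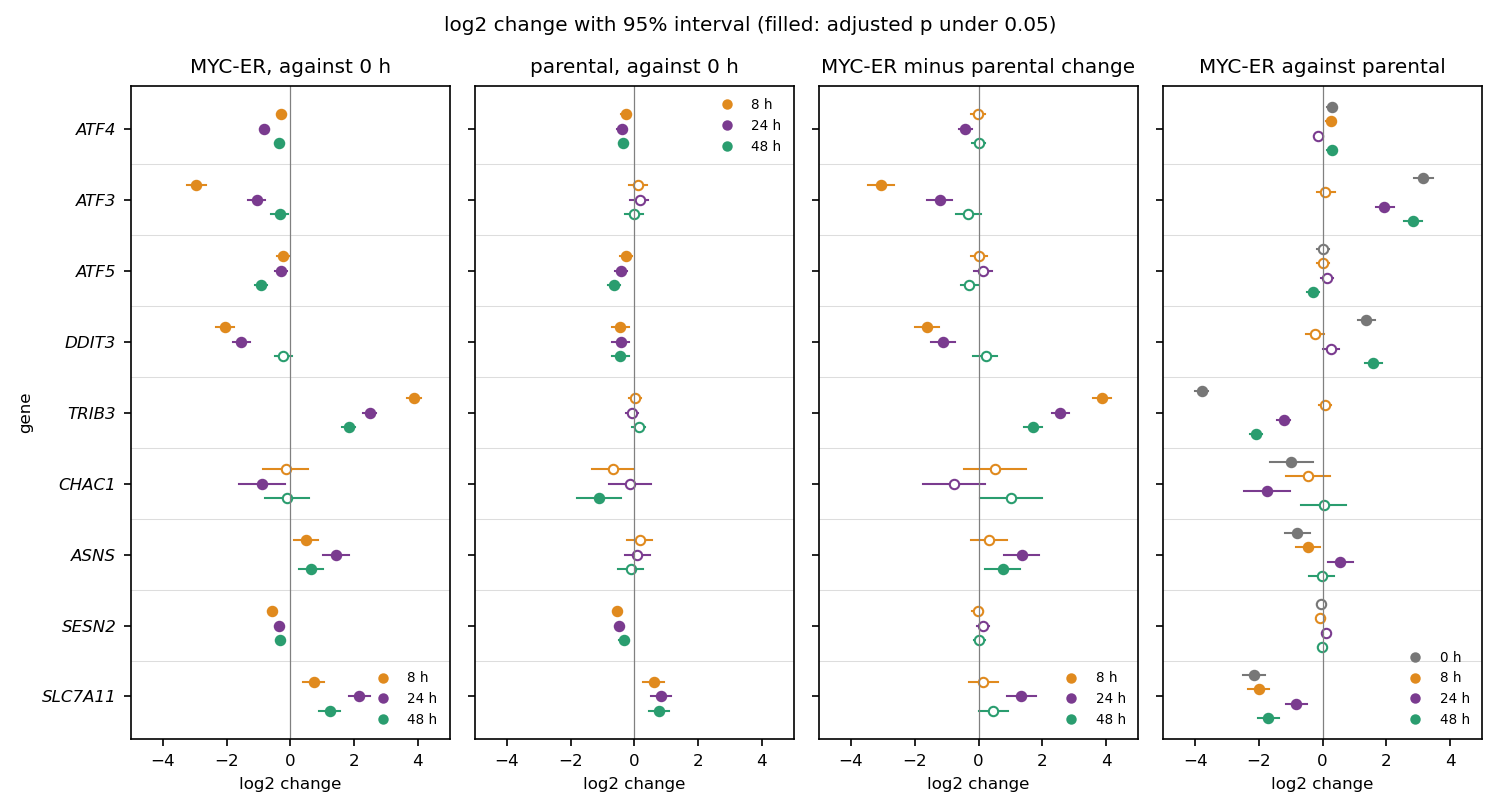
Log2 change of each of the 9 genes with its 95% interval (x axis) in 4 panels: MYC-ER against its own 0 h, parental against its own 0 h, MYC-ER change less parental change, and MYC-ER against parental at each time. Filled points have an adjusted p under 0.05; TRIB3 lies far to the right and ATF3 and DDIT3 to the left at 8 h in MYC-ER, while the parental intervals stay within 2 log2 units of 0.

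The lines already differed without 4-OHT. At 0 h, 3 of the 9 genes were higher in MYC-ER than in parental cells, where 31.6% of all genes were higher, and 4 were lower, where 32.7% were. ATF3 was 8.89-fold higher (log2 difference 3.15, SE 0.139, adjusted p = 1.39e-14), DDIT3 2.59-fold higher (1.37, adjusted p = 3.42e-09), and ATF4 higher by 0.28 on the log2 scale (adjusted p = 0.00125). TRIB3 was 13.9-fold lower (-3.79, SE 0.102, adjusted p = 2.69e-18), SLC7A11 4.44-fold lower (-2.15, adjusted p = 9.59e-11), ASNS lower at -0.79 (adjusted p = 7.93e-04) and CHAC1 at -0.98 (adjusted p = 0.0105). The ATF4 difference was lost when only the 2 groups entered the fit (0.28, adjusted p = 0.0606); it was 0.16 without parental 0 h replicate 2 and 0.70 with GC and length trends removed. With the GC trend removed ATF5 (0.27) and SESN2 (0.22) were called higher in MYC-ER too (adjusted p = 4.23e-04 and 1.11e-04), and the CHAC1 difference (-0.70, adjusted p = 0.0647) was lost.

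At 8 h the lines were closer. Here 1 gene was higher in MYC-ER (ATF4, 0.26, adjusted p = 0.00332; 23.1% of all genes were higher) and 2 were lower (SLC7A11, -2.01, adjusted p = 6.50e-10, and ASNS, -0.46, adjusted p = 0.0427; 25.5% of all genes were lower). The ASNS call was lost with DESeq2 size factors (-0.43, adjusted p = 0.0561), with the replicate number as a block (-0.47, adjusted p = 0.0532), and when MYC-ER 8 h replicate 1 or 3 or any 1 of the parental 8 h libraries was left out (adjusted p from 0.0848 to 0.137). It was also lost without MYC-ER 24 h replicate 1, parental 0 h replicate 3, or parental 24 h replicate 1 or 3 (adjusted p from 0.0502 to 0.0589). Dropping the filter (-0.45, adjusted p = 0.0766) or removing GC and length trends (-0.43, adjusted p = 0.0639) ended the ASNS call too. TRIB3, ATF3 and DDIT3, which had differed at 0 h, now differed by 0.08 for TRIB3 (95% interval -0.11 to 0.27), 0.09 for ATF3 (-0.19 to 0.38) and -0.24 for DDIT3 (-0.51 to 0.03), none of them called, whereas SLC7A11 differed nearly as much as at 0 h. At 24 h ATF3 (1.94) and ASNS (0.56) were higher, beside 23.5% of all genes, and CHAC1 (-1.74), TRIB3 (-1.22) and SLC7A11 (-0.82) lower, beside 25.8%, with adjusted p from 7.27e-11 to 0.0145. At 48 h ATF3 (2.84), DDIT3 (1.59) and ATF4 (0.28) were higher, beside 27.3%, and TRIB3 (-2.09), SLC7A11 (-1.70) and ATF5 (-0.29) lower, beside 29.4%, with adjusted p from 5.46e-14 to 0.0083; the ATF5 call was lost with library size alone or upper quartile scaling (-0.15 with both). At 48 h, then, ATF3, DDIT3, ATF4, TRIB3 and SLC7A11 differed between the lines in the same direction as at 0 h. ASNS differed by -0.03 at 48 h (95% interval -0.42 to 0.36).

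The parental line, which has no fused MYC, shows what the same 4-OHT treatment goes with on its own. At 8 h SLC7A11 alone was called higher (0.60, adjusted p = 0.0047), beside 15% of all genes, and 4 were called lower, beside 16%. The 4 were SESN2 (-0.55, adjusted p = 1.39e-06), DDIT3 (-0.44, adjusted p = 0.0109), ATF4 (-0.27, adjusted p = 0.00538) and ATF5 (-0.26, adjusted p = 0.0339). At 24 h the same gene was higher, beside 21.2%, and the same 4 lower, beside 21.7%, with SLC7A11 at 0.83, SESN2 at -0.48, DDIT3 and ATF5 at -0.43 each and ATF4 at -0.40. At 48 h SLC7A11 was higher at 0.77, beside 20.4%, and 5 were lower, beside 20.1%: CHAC1 (-1.12, adjusted p = 0.00802), ATF5 (-0.63), DDIT3 (-0.44), ATF4 (-0.35) and SESN2 (-0.34). With only the 2 groups of each contrast in the fit, SESN2 alone kept its call at 8 h, and the DDIT3 calls at 24 h and 48 h (adjusted p = 0.0543 and 0.0733) and the ATF4 call at 48 h (-0.34, adjusted p = 0.0766) were lost. The ATF5 call at 8 h was lost without parental 0 h replicate 1 or 3 or any 1 of the 8 h libraries (adjusted p from 0.0781 to 0.241). The DDIT3 calls were lost without parental 0 h replicate 3 (-0.35, -0.34 and -0.33 at the 3 times, adjusted p from 0.0668 to 0.0801), and at 24 h also without parental 24 h replicate 1 (-0.34, adjusted p = 0.0548). TRIB3, the most changed gene in MYC-ER, differed from 0 h by 0.01 (95% interval -0.18 to 0.20), -0.07 (-0.26 to 0.12) and 0.13 (-0.06 to 0.32) in parental cells.

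The parental changes moved with the GC content of transcripts. Over 10779 genes, the Spearman correlation of the log2 change with GC percent was -0.601, -0.648 and -0.644 in parental cells at 8, 24 and 48 h and 0.012, -0.066 and 0.022 in MYC-ER, as a description across genes. For the line by time interaction it was 0.217, 0.234 and 0.439 at these times. Between the lines it was -0.234 at 0 h and -0.006, 0.015 and 0.121 at 8, 24 and 48 h. SLC7A11, at 35.4% the lowest in GC of the 9, was the parental gene called higher, and ATF4 (56.7%), SESN2 (59.5%) and ATF5 (60.0%) were among those called lower. The other genes followed GC content less. DDIT3, at 49.7%, was called lower at 8, 24 and 48 h. CHAC1, the highest at 62.6%, was called at 48 h only, and TRIB3 (60.9%) was not called as fitted. Nor were ATF3 (46.7%) and ASNS (47.0%). With the GC trend of each library removed, the parental changes at 8, 24 and 48 h became -0.10, -0.17 and -0.12 for ATF4, -0.02, -0.12 and -0.34 for ATF5, -0.33, -0.19 and -0.07 for SESN2 and 0.32, 0.43 and 0.35 for SLC7A11. The ATF4 call at 8 h (adjusted p = 0.137), the ATF5 calls at 8 and 24 h (adjusted p = 0.834 and 0.126) and the SESN2 and CHAC1 calls at 48 h (adjusted p = 0.247 and 0.0689) were then lost, while TRIB3 (60.9% GC) was called higher at 0.26, 0.26 and 0.44 (adjusted p = 0.00372, 0.00195 and 2.09e-05). With length trends removed as well, SLC7A11 was at 0.21, 0.17 and 0.10, its call at 48 h was lost (adjusted p = 0.248), ATF4 was at -0.03, -0.03 and 0.02 with no call, and the DDIT3 calls at 24 and 48 h were lost (-0.19 and -0.18, adjusted p = 0.226 and 0.254). Whether the trend is technical was not tested. The TRIB3, ATF3 and DDIT3 changes in MYC-ER at 8 h were 3.82, -2.99 and -2.1 with the trend removed.

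**Figure D3:**
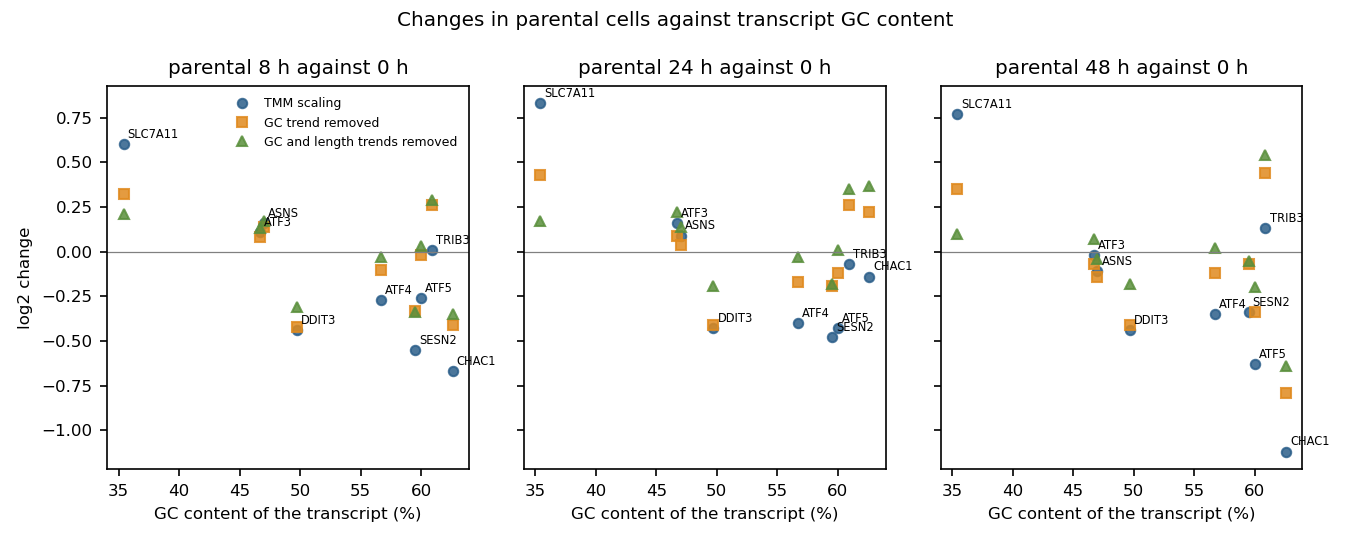
Log2 change of each of the 9 genes in parental cells at 8, 24 and 48 h (y axis) against GC content of its transcript in percent (x axis), with 3 settings: as fitted, with the GC trend removed, and with GC and length trends removed. The fitted values run from above 0 for SLC7A11 at 35.4% GC to below 0 for ATF4, SESN2 and ATF5, and most lie nearer 0 once the trends are removed. DDIT3, at 49.7% GC, also lies below 0 as fitted, while TRIB3, at 60.9%, lies near 0 as fitted and above 0 with the trends removed.

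The test of the line by time interaction, in which the parental change is subtracted from the MYC-ER change, called 1 gene higher and 2 lower at 8 h, beside 27.3% and 27.8% of all genes. TRIB3 changed more upward in MYC-ER by 3.87 (SE 0.133, adjusted p = 7.45e-16), and ATF3 (-3.06, SE 0.19, adjusted p = 9.54e-12) and DDIT3 (-1.61, SE 0.178, adjusted p = 9.28e-08) changed more downward. The differences were -0.02 for ATF4, -0.03 for SESN2 and 0.14 for SLC7A11, none called. The changes of these 3 genes at 8 h were thus not shown to differ between the lines as fitted. With the GC trend removed all 3 were called, ATF4 at -0.25 (adjusted p = 0.0022), SESN2 at -0.30 (adjusted p = 1.90e-04) and SLC7A11 at 0.37 (adjusted p = 0.0171), as was ATF5 at -0.27 (adjusted p = 0.00884). At 24 h TRIB3 (2.57), ASNS (1.35) and SLC7A11 (1.33) changed more upward in MYC-ER, beside 27.7% of all genes, and ATF3 (-1.21), DDIT3 (-1.11) and ATF4 (-0.41) more downward, beside 26.8%, with adjusted p from 3.65e-13 to 0.00114. At 48 h 2 genes were called, both higher: TRIB3 (1.70, adjusted p = 9.14e-10) and ASNS (0.76, adjusted p = 0.0216), where 23.6% of all genes were called higher and 21.4% lower. With the GC trend removed SLC7A11 was called higher too (0.90, adjusted p = 6.38e-06, from 0.45 as fitted), and ATF5 (-0.56), SESN2 (-0.23) and ATF4 (-0.21) were called lower, with adjusted p from 1.43e-05 to 0.0126. Upper quartile scaling (0.53, adjusted p = 0.0389) or leaving out parental 0 h replicate 3 (0.61, adjusted p = 0.0118) also gave a call for SLC7A11. Without parental 0 h replicate 2, the library with low ATF4 and high SLC7A11, the SLC7A11 difference at 24 h was 1.01 (adjusted p = 6.98e-07), that of ATF4 was -0.29, and the ASNS call at 48 h was lost (0.53, adjusted p = 0.0779). With GC and length trends removed the 24 h differences were 2.02 for SLC7A11 and -0.79 for ATF4. The ASNS call at 48 h was lost as well with only the groups compared in the fit (0.76, adjusted p = 0.0831) or after leaving out parental 48 h replicate 3 (0.54, adjusted p = 0.0603), MYC-ER 0 h replicate 2 (0.62, adjusted p = 0.0697) or MYC-ER 48 h replicate 3 (0.69, adjusted p = 0.0536).

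Lists of other genes of the pathway, fitted in the same way, show what else changed; each is described by how many of its genes were called in each direction against 0 h. The shares of all genes to read them against were 32.2% higher and 35.4% lower for MYC-ER after 8 h, 30.4% and 31.2% after 24 h, and 23.4% and 20.7% after 48 h. In parental cells they were 15% and 16%, 21.2% and 21.7%, and 20.4% and 20.1% at these times. Of 16 stress kinases and eIF2 regulators, 11 rose and 2 fell in MYC-ER at 8 h and 10 rose and 4 fell at 24 h (medians 0.34 and 0.40, beside -0.10 and -0.02 over all genes). At 48 h 2 rose and 2 fell, and with library size alone as scaling 6 rose and 1 fell. EIF2B2, a subunit of the eIF2 exchange factor, rose at all 3 times (1.94, 1.26 and 1.01). PPP1R15A, encoding the phosphatase subunit GADD34 that reverses eIF2 phosphorylation, fell at 8 h and 24 h (-1.16 and -1.07), and EIF2AK3, encoding PERK, fell at both times (-0.57 and -0.85). In parental cells 4 rose and 3 fell at 8 h, 7 and 4 at 24 h, and 5 and 6 at 48 h.

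Of 17 bZIP factors that pair with or resemble ATF4, 5 rose and 11 fell in MYC-ER at 8 h, 1 rose and 13 fell at 24 h, and 1 rose and 10 fell at 48 h. The 24 h median was -0.93, beside -0.02 over all genes, of which 31.2% fell. BATF3, which pairs with JUN proteins, was the one called higher at 24 and 48 h, with means of 0.139 CPM at 0 h and 7.27, 8.93 and 1.76 at 8, 24 and 48 h (log2 change 5.71, 6.0 and 3.66). FOS rose at 8 h (1.67), while JDP2 fell at 8 h and 24 h (-2.40 and -2.60). CEBPB, a main partner of ATF4 in the response element, fell at 24 h from 96.9 to 25.4 CPM (-1.93, adjusted p = 2.26e-13). In parental cells 3 rose and 7 fell at 8 h, 5 and 8 at 24 h, and 5 and 7 at 48 h.

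Of 12 enzymes of serine, glycine, proline and sulphur amino acid metabolism and transamination under ATF4, 9 rose and 2 fell in MYC-ER at 8 h, 11 rose at 24 h, when PSAT1 was not called, and 9 rose and 1 fell at 48 h. The medians were 0.60, 1.16 and 0.39. PHGDH, the first enzyme of serine synthesis, had means of 0.968, 0.740, 24.5 and 23.3 CPM at 0, 8, 24 and 48 h, so that its rise at 24 h (4.66, adjusted p = 5.31e-16) had no counterpart at 8 h. MTHFD2, of mitochondrial folate metabolism, rose at 8 h and 24 h (1.34 and 1.71), PYCR1, of proline synthesis, at 8 h (1.59) and ALDH1L2 at 24 h (1.88). PSAT1 and PCK2 were the 2 that fell at 8 h (-1.08 and -0.33). In parental cells 2 rose and 4 fell at 8 h, 2 and 5 at 24 h, and 3 and 5 at 48 h. The line by time difference at 24 h was called higher for all 12, beside 27.7% of all genes, with a median of 1.20 beside 0.02.

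Of 10 tested amino acid transporters, 5 rose and 3 fell in MYC-ER at 8 h, 3 rose and 5 fell at 24 h, and 1 and 3 at 48 h, which is no shared direction (medians 0.09, -0.09 and -0.14). SLC7A5, which exchanges leucine, fell at 8 h (-0.53) together with its partner SLC3A2, while the glutamine transporter SLC1A5 rose (0.54). The glycine transporter SLC6A9 fell at 24 h (-2.12, adjusted p = 1.36e-14) and SLC1A4 rose (0.83). With upper quartile scaling 3 instead of 5 transporters rose at 8 h, and with library size alone 3 instead of 5 fell at 24 h. In parental cells 2 rose and 2 fell at 8 h, 4 and 3 at 24 h, and 3 and 5 at 48 h.

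Of 14 genes of tRNA charging and export, 13 rose in MYC-ER at 8 h and 1 fell, 10 rose and 2 fell at 24 h, and 4 rose and 4 fell at 48 h. The 8 h median was 0.93, beside -0.10 over all genes, of which 32.2% rose. The isoleucyl-tRNA synthetase gene IARS1 rose from a mean of 169 CPM to 485 at 8 h (1.52, adjusted p = 4.94e-16), and GARS1 (1.48) and WARS1 (1.38) followed in size, whereas AARS1 fell (-0.22, adjusted p = 0.00149). The line by time difference at 8 h was called higher for 13 of the 14, beside 27.3% of all genes. In parental cells 5 were called at 8 h, each lower; 4 rose and 3 fell at 24 h, and 3 rose and 7 fell at 48 h. Without 4-OHT, 10 of the 14 differed between the lines, each lower in MYC-ER, beside 32.7% of all genes. ASNS and SLC7A11 thus peaked at 24 h while the synthetases had their highest median at 8 h; the difference in timing was not tested.

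Of 18 tested other stress targets of ATF4 and CHOP, 8 rose and 9 fell in MYC-ER at 8 h, 6 rose and 10 fell at 24 h, and 7 and 4 at 48 h. The members that rose most at 8 h were VLDLR (3.71), the secreted glycoprotein gene STC2 (3.54, from 8.66 to 101 CPM) and EIF4EBP1, an inhibitor of cap-dependent translation (2.19). Those that fell most were the cytokine gene GDF15 (-3.51, from 7.12 to 0.623 CPM), KLHL24 (-2.94) and NUPR1, a stress-induced cofactor (-2.61, from 130 to 21.3 CPM). At 24 h VLDLR (3.90), STC2 (3.78) and EIF4EBP1 (2.1) were again the largest rises, and STC2 was still higher at 48 h (1.67). Both this list and the 9 genes held large changes in both directions at 8 h. Parental cells had 4 rises and 7 falls at 8 h, 4 and 7 at 24 h, and 5 and 8 at 48 h.

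**Figure D4:**
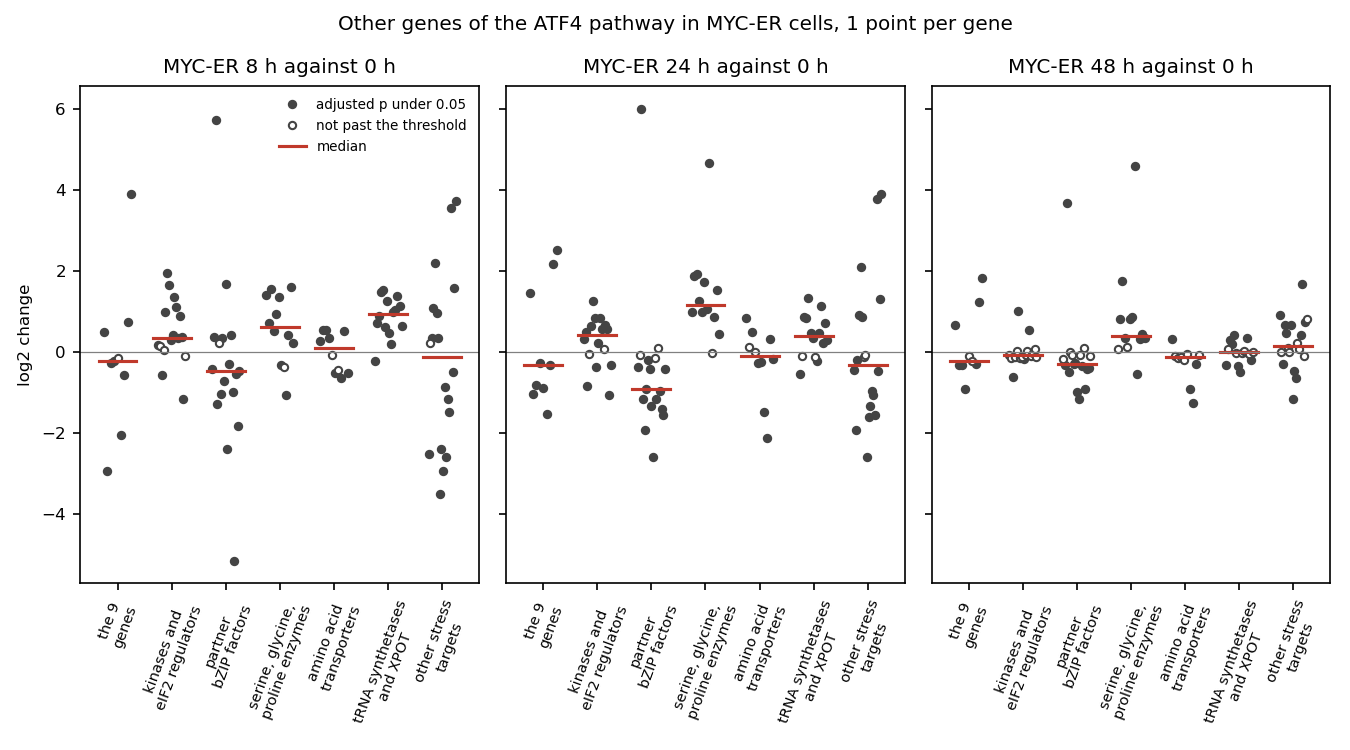
Log2 change against 0 h in MYC-ER at 8, 24 and 48 h (y axis) of each tested gene of the 9 and of 6 lists of related genes, 1 point per gene and a red bar for the median. Points of the tRNA list at 8 h and of the enzyme list at 24 h lie mostly above 0, while the 9 genes and the other stress targets spread to both sides.

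Lists of 3 programs that share members or inputs with these genes were read beside them. Of 16 genes of the unfolded protein response of the endoplasmic reticulum, 11 rose and 4 fell in MYC-ER at 8 h, 3 rose and 7 fell at 24 h, while at 48 h 9 were called, each lower. Other scalings, filters or left-out libraries gave 1 or 2 called higher at 48 h. In parental cells 12 were called at 8 h, each higher, beside 15% of all genes, and 7 rose and 3 fell at 24 h, and 5 and 10 at 48 h. Parental changes at 8 h moved with GC content over all genes (Spearman correlation -0.601). A fit of the 2 parental groups alone called 1452 genes in all at 8 h, against 3319 higher and 3551 lower as fitted. In MYC-ER the chaperone gene SDF2L1 rose at 8 h (2.34), DNAJB9 fell (-1.11), and at 24 h DNAJB9 (-1.91), HERPUD1 (-1.62) and XBP1 (-1.42) were the largest falls. Of 10 targets of NRF2, the regulator of antioxidant genes and a further regulator of SLC7A11, which the list includes, 7 rose and 2 fell at 8 h, 6 and 2 at 24 h, and 5 and 2 at 48 h. OSGIN1 (2.61) and SRXN1 (1.37) rose at 8 h, but HMOX1, encoding haem oxygenase, fell at 8 h and 24 h (-2.18 and -2.08). Parental counts were 4 and 4 at 8 h, 4 and 4 at 24 h, and 3 and 6 at 48 h. Of 10 p53 targets, which include SESN2 and ATF3, 1 rose and 8 fell in MYC-ER at 8 h, 2 rose and 7 fell at 24 h, and 3 and 4 at 48 h, with TP53INP1 (-2.54) and SESN1 (-2.21) among the falls at 8 h. In parental cells 3 were called at 8 h, each lower, 2 rose and 4 fell at 24 h, and 4 and 3 at 48 h.

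Paralogues of the 9 genes changed in both directions. Of 7 tested, 3 rose and 4 fell in MYC-ER at 8 h, 3 rose and 3 fell at 24 h, and 3 and 1 at 48 h. TRIB1, a pseudokinase related to TRIB3, rose from a mean of 2.71 CPM to 44.2 at 8 h (4.03, adjusted p = 4.54e-21), and stood at 6.09 and 8.17 CPM at 24 h and 48 h beside 25.5 to 31.2 in the parental groups. TRIB2 rose at 8 h and 48 h (1.41 and 1.29). CHAC2 rose at 8 h and 24 h (2.05 and 2.08) with means of 2.48, 10.3 and 10.5 CPM at 0, 8 and 24 h, at times when CHAC1 stood between 0.153 and 0.285. SESN1 and SESN3 fell at 8 h (-2.21 and -1.98), in the direction of SESN2, and SLC7A8, of the family of SLC7A11, fell at 8 h (-2.95) and was higher at 48 h (1.42). In parental cells 2 paralogues rose and 2 fell at 8 h, 3 and 2 at 24 h, and 3 and 1 at 48 h.

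MYC itself, as counted for its gene, stood at means of 387, 795, 321 and 248 CPM in MYC-ER at 0, 8, 24 and 48 h, and at 532, 463, 506 and 525 in parental cells. Its log2 change in MYC-ER was 1.04 at 8 h (adjusted p = 8.28e-12), -0.27 at 24 h and -0.64 at 48 h. Transcripts of the fusion and of the endogenous gene cannot be told apart in these counts, and the counts say nothing of the activity of the fused protein.

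Among the 9 genes, some pairs had like and some opposed levels over the 8 group means, but the 9 did not split into clear sets. ATF5 correlated with the other members at -0.26 to 0.39 only, CHAC1 at -0.52 to 0.34 and SESN2 at -0.51 to 0.62. ATF4 with ATF3 was at 0.37 and TRIB3 with ASNS at 0.48. The strongest pairs and ASNS with SLC7A11 follow. Pearson correlations of log2 CPM over both lines were 0.87 for ATF3 with DDIT3, 0.72 for TRIB3 with SLC7A11 and 0.69 for ASNS with SLC7A11. They were -0.94 for ATF3 with TRIB3, -0.91 for DDIT3 with TRIB3, -0.88 for ATF4 with ASNS and -0.83 for ATF4 with SLC7A11. Over the 4 MYC-ER means alone they were 0.91 for ATF3 with DDIT3, 0.47 for TRIB3 with SLC7A11, 0.99 for ASNS with SLC7A11, -0.91 for TRIB3 with ATF3 and with DDIT3, and -1 and -0.98 for ATF4 with ASNS and with SLC7A11. Over the 4 parental means most were not alike, at -0.45 for ATF3 with DDIT3, 0.15 for TRIB3 with SLC7A11, 0.10 for ASNS with SLC7A11, -0.20 for DDIT3 with TRIB3 and -0.11 for ATF4 with ASNS, while ATF3 with TRIB3 (-0.78) and ATF4 with SLC7A11 (-1) kept their sign and most of their size. As fitted, parental ATF3 and TRIB3 were not called at any time, with means of 0.750 to 0.846 and 108 to 124 CPM. With GC and length trends removed, the parental changes at 8, 24 and 48 h were -0.03, -0.03 and 0.02 for ATF4. For SLC7A11 they were 0.21, 0.17 and 0.10. The correlations were not recomputed with these trends removed. They are descriptions over few means that share scaling and line. Over the 24 libraries and 10634 genes of at least 10 CPM in some group, the genes most like each member were FAAH, COX7A2L and SELENOM for ATF4 (r from 0.946 to 0.959), HPS4, MAP7D2 and PAIP2B for ATF3 (0.972 to 0.986), and HSPB8, ACOT2 and THNSL2 for DDIT3 (0.979 to 0.982). For TRIB3 they were ETV5, NTSR1 and EGR1 (0.987 to 0.990), for ASNS FBXO22, YEATS4 and ATAD5 (0.860 to 0.876), and for SLC7A11 ECT2, LPCAT2 and PRDX3 (0.960 to 0.963). The closest gene reached 0.874 for ATF5 (BDH1), 0.931 for SESN2 (AKAP8L) and 0.807 for CHAC1 (RUBCN). The members themselves were not searched.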

How the data were processed

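RNA was measured in 24 poly(A)-selected, stranded libraries (150-base paired reads, 3 libraries per lane, per the labels' protocols). Which libraries shared a lane is not given, so lane and group cannot be told apart in any contrast. The values the authors deposited are whole-number counts, 1 per gene and library. The submitters' processing notes name Trimmomatic 0.39, STAR, StringTie 2.1.3b and GRCh38 without their roles; whether counting used strand is not given in the sources used here, and counts derived from StringTie coverage would be estimates. Of 60668 rows, 60340 matched a symbol table. Positions, exon lengths and overlaps come from GENCODE 29 (GRCh38). Genes passing filterByExpr were normalised by TMM, and a model with a mean for each group was fitted to the 24 libraries together in edgeR 4.0.16 under R 4.3.3 (biological coefficient of variation 0.151); contrasts were tested two-sided with the quasi-likelihood F test and Benjamini-Hochberg adjustment over the 22158 genes of each contrast, threshold 0.05. An SE is the log2 change over the root of F, and a 95% interval uses 16 residual degrees of freedom. Log2 CPM used a prior count of 2. No replicate pair agreed within sampling noise (chi-square per degree of freedom 8.45 to 260 over 24 pairs), so each library was counted. The scripts were tested on simulated data. The 9 genes and the 10 lists (128 genes) were chosen with earlier results of these data known. Named beside the 9 were MYC, genes of lists of up to 12, in longer lists the 3 largest rises and falls per MYC-ER contrast or genes of 2 lists, the 3 most alike genes of each member, markers and overlapping genes. As alternatives, scaling used size factors of DESeq2, the library size or the upper quartile; the filter was dropped or set to at least 10 counts in every library; the test was the Wald test of DESeq2 1.42.0; the fit held the compared groups only or the replicate number as a block; and each library was left out in turn. Removing lowess trends (span 0.3) on GC content, or GC content and length, through offsets was chosen after seeing the data.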

Additional observations from a re-analysis of the deposited data

Results flagged for a closer look

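The MYC-ER change differed from the parental change, by the test of the line by time interaction in edgeR, for 3 of the 9 genes after 8 h, 6 after 24 h and 2 after 48 h. Of all genes tested, 27.3% were called higher and 27.8% lower at 8 h, 27.7% and 26.8% at 24 h, and 23.6% and 21.4% at 48 h. These counts alone do not set the 9 genes apart. The differences are MYC-ER minus parental, on the log2 scale, with 3 libraries in each of the 4 groups entering each. At 8 h they were -3.06 for ATF3 (SE 0.19, adjusted p = 9.54e-12), -1.61 for DDIT3 (SE 0.178, adjusted p = 9.28e-08) and 3.87 for TRIB3 (SE 0.133, adjusted p = 7.45e-16). At 24 h they were -0.41 for ATF4 (SE 0.0965, adjusted p = 0.00114), -1.21 for ATF3 (SE 0.184, adjusted p = 8.72e-06), -1.11 for DDIT3 (SE 0.177, adjusted p = 1.55e-05), 2.57 for TRIB3 (SE 0.131, adjusted p = 3.65e-13), 1.35 for ASNS (SE 0.261, adjusted p = 1.41e-04) and 1.33 for SLC7A11 (SE 0.215, adjusted p = 1.72e-05). At 48 h they were 1.70 for TRIB3 (SE 0.13, adjusted p = 9.14e-10) and 0.76 for ASNS (SE 0.261, adjusted p = 0.0216). All 11 were computed against the same 6 untreated libraries. The 9 differences at 8 h and 24 h kept their call under all 34 alternatives, as did TRIB3 at 48 h.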

How the results depend on the processing

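Of the 135 changes of the 9 genes over 15 contrasts, the 100 that were called or are given with a value were recomputed 34 times; the other 35, none called as fitted, were not counted here, and some were called or changed sign with GC trends removed. Of these 3400 values, 927 under other scalings, filters, tools, designs and trend removal and 2348 with a library left out kept direction and call, calls were lost in 41 and 34 cases and gained in 16 and 3, and the rest reversed. All 2380 recomputed changes of the named list genes kept both. The reversals follow, with the other end of the range over left-out libraries. ASNS in MYC-ER against parental at 48 h became 0.10 with library size alone, 0.11 with upper quartile, 0.01 with at least 10 counts in every library, 0.04 and 0.06 with GC, or GC and length, trends removed, 0.07 without MYC-ER 48 h replicate 2, and 0.15 and 0.03 without parental 48 h replicates 1 and 2 (lowest -0.25). The TRIB3 change in parental cells became -0.03 (upper quartile), -0.10 (without parental 0 h replicate 2) and -0.03 (without parental 8 h replicate 3; highest 0.12) at 8 h, and 0.26, 0.35 (trends removed) and 0.05 (without parental 0 h replicate 3) at 24 h. With GC and length removed, ATF5 became 0.03 and 0.01 at parental 8 h and 24 h and ATF4 0.02 at 48 h. The line by time difference at 8 h became 0.01 for ATF4 with DESeq2 size factors, the DESeq2 Wald test and without MYC-ER 0 h replicate 3, 0.02 without MYC-ER 8 h replicate 2 and 0.10 without parental 0 h replicate 2 (lowest -0.08); for SESN2 0.01, 0.04 and 0 without MYC-ER 8 h, parental 0 h and parental 8 h replicate 2 (lowest -0.09); and for SLC7A11 -0.18 without parental 0 h replicate 2 (highest 0.32). That of SESN2 at 24 h, 0.14 in the fit reported, became -0.05 and -0.06 with trends removed. CHAC1 in MYC-ER at 8 h became 0.09 without MYC-ER 0 h replicate 3 (lowest -0.29), TRIB3 between lines at 8 h 0 with library size alone, and ATF3 there -0.06 without MYC-ER 8 h replicate 1 (highest 0.18). The cause of these was not tested.

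The number of the 9 genes called moved as follows. In parental cells at 8 h it was 1 with only the groups compared, against 5, and 3 to 5 with a library left out, lowest without parental 0 h replicate 3. With GC and length removed it was 3 at 24 h and 2 at 48 h, against 5 and 6. Of all 22158 genes, 7368 and 6586 were then called at these times. As fitted, 4698 were higher and 4805 lower at 24 h, and 4515 and 4463 at 48 h. Between lines at 24 h it was 8 under library size alone, upper quartile and both trend removals, against 5. With the GC trend removed ATF5 (0.21), DDIT3 (0.32) and SESN2 (0.17) were added. Of all genes, from 11125 to 11791 were called under these settings, beside 5210 higher and 5726 lower as fitted. The interaction count was 7 at 8 h with either trend removed, against 3, and at 48 h 6 with either trend removed and 1 with only the groups compared, against 2. With GC, or GC and length, removed, 12766 and 13018 of all genes were called at 8 h, and 9686 and 9456 at 48 h. As fitted, 6058 were higher and 6169 lower at 8 h, and 5239 and 4731 at 48 h. With a library left out the interaction count ran from 1 (without MYC-ER 0 h replicate 2 or parental 0 h replicate 2) to 4 (without parental 0 h replicate 3) at 48 h. The fit of the compared groups calls fewer parental genes in all, from 1452 to 4923. Library size alone moved the share of called genes that were higher from 53% to 73.8% at MYC-ER 48 h, from 51.2% to 67.8% for 24 h against 8 h, from 52.5% to 63.5% for the interaction at 48 h, and from 47.6% to 60.7% and 48.2% to 59.8% between lines at 24 h and 48 h; upper quartile gave 58.4% and 59.7% for the last 2. The median change of all genes moved by over 0.1 under upper quartile scaling for MYC-ER 8 h (-0.10 to -0.24) and lines at 48 h (to 0.16), and under library size alone for MYC-ER 24 h (-0.02 to 0.09), 48 h (0.03 to 0.19) and 24 h against 8 h (0.05 to 0.26), lines at 24 h and 48 h (to 0.14 and 0.16) and the interaction at 8 h (-0.08 to -0.20).

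The replicate numbers do not pair the libraries by any label. Deviations of same-numbered libraries correlated from -0.078 to 0.094 over 84 pairs, and 10 of 24 libraries were closest to their own number. With the replicate number as a block the number called was 2 instead of 3 between lines at 8 h, where ASNS became -0.47 (adjusted p = 0.0532), and the same as reported in the other 14 contrasts. Depth limits CHAC1 most, with 15 to 103 counts per library.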
